A study of Mus musculus with 9 samples.

Results

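The cytoplasmic ribosomal protein genes of mouse granulosa cells are described here across 9 poly(A)-selected RNA-seq libraries. Members were found by symbol (Rpl or Rps with a number and at most 1 letter of a, l or x, plus Rplp0, Rplp1, Rplp2 and Rpsa, leaving out symbols that end in -ps with a number). They also had to reach at least 1 FPKM (a fragment count scaled by exon length and library size) in at least 3 of the 9 libraries. Of 83 matching symbols, 80 passed, 48 of the large and 32 of the small subunit, among 14431 genes that passed the same filter. GENCODE M21 annotates 78 of the 80 as protein coding and the other 2, Rpl6l and Rps4l, as processed pseudogenes. The 3 that did not pass were Rpl10l, Rpl3l and Rpl32l, which reached at most 0.476, 0.222 and 0.149 FPKM in any library. Just inside the filter were Rpl39l, Rpl24 and Rps4l, with mean levels of 1.10, 2.57 and 5.17 FPKM. The symbols of 9 further ribosomal or ribosome-related genes, Rps3a1 and Fau among them, fall outside the rule, and they are given apart.

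The cells came from ovaries of wild-type female C57BL/6 mice and were not cultured. CTX_HCQ mice received hydroxychloroquine by mouth at 40 mg per kg and day, from 7 days before a cyclophosphamide injection of 120 mg per kg until 4 weeks after it. CTX mice received that cyclophosphamide dose without hydroxychloroquine, and Control mice received neither drug (the design text speaks of vehicle, the labels of untreated mice). Cyclophosphamide is an alkylating drug that damages follicles and is used to model premature ovarian failure, and hydroxychloroquine is an antimalarial drug that accumulates in lysosomes. Each group held 3 libraries, written below with the replicate number of the labels, as in CTX 3. Whether the libraries are separate mice or pools is not stated, and p-values therefore describe the spread between these libraries, which may be technical. Between 13898112 and 17751053 whole reads per library were recovered from the deposited values. All 10 granulosa cell markers examined, among them Inha, Amh and Foxl2, were present in every library. Their summed level was 4736 to 5644 FPKM in CTX_HCQ, 4758 to 6693 FPKM in CTX and 4226 to 6340.5 FPKM in Control.

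Cytoplasmic ribosomes are built from ribosomal RNA and a fixed set of proteins, 1 gene for most proteins, and the proteins are needed in nearly equal numbers. In vertebrates their mRNAs are short, abundant and begin with a run of pyrimidines after a cytosine, the terminal oligopyrimidine motif, through which mTOR and the RNA-binding protein Larp1 control their translation. In the ovary, granulosa cells divide as follicles grow, which calls for new ribosomes. Free Rpl5 and Rpl11 bind Mdm2 and thereby stabilise p53 when ribosome assembly is disturbed.

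The bases around the annotated start of 7 members are shown because Rps27, Rpl38, Rps10, Rpl31 and Rpl27 stood at the extremes of the comparisons or of the spread between libraries, and Rplp2 and Rps6 stand for the stalk and for S6 kinase signalling. RefSeq (GRCm38.p6) gave a start region for 58 of the 80 members, and the windows hold 25 bases before and 30 after the start. Capitals mark CTTTC, a cytosine with pyrimidines behind it, on the gene's own strand. The coordinates belong to GRCm38.p6, whereas the submitters' processing notes name GRCm39, and no position was carried between the builds.
Rps27 (chr3:90213619-90213673, minus strand): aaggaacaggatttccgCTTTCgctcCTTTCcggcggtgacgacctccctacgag
Rpl38 (chr11:114668555-114668609, plus strand): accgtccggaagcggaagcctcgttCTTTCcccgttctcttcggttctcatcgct
Rplp2 (chr7:141447626-141447680, plus strand): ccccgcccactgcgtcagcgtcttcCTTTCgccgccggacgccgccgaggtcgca
Rps10 (chr17:27635215-27635269, minus strand): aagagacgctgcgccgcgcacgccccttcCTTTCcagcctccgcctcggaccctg
Rps6 (chr4:86857338-86857392, minus strand): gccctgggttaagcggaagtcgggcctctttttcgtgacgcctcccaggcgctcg
Rpl31 (chr1:39367826-39367880, plus strand): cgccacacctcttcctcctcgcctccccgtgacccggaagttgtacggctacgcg
Rpl27 (chr11:101442220-101442274, plus strand): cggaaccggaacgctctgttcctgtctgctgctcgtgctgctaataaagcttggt
Rpl38, Rplp2 and Rps10 carry CTTTC at or within a few bases of the annotated start, and Rps27 carries it just before and again at the start. The windows of Rps6, Rpl31 and Rpl27 do not hold these letters. That of Rps6 still has a cytosine at the annotated start with an unbroken run of pyrimidines behind it. From 50 bases before to 50 after the start, CTTTC on the gene's own strand was in 36 of the 69 start regions of the 58 members (52.2%), against 12.8% of all 32851 start regions in the table. On the other strand it was in 8.70% of the members' regions, against 12.1% of all. The share was 63.4% of 41 large subunit regions and 35.7% of 28 small subunit regions. CCGGAAG, a binding motif of ETS factors, was on either strand in 18.8% of the members' regions, against 5.21% of all regions (a CTTTC and a CCGGAAG can share 1 end base at most). These are matches of letters only.

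Levels spanned a wide range among members although the proteins are used in nearly equal numbers. Mean FPKM over the 9 libraries had a median of 201 and quartiles of 102 and 354. Rplp1, a protein of the acidic stalk that recruits translation factors, was highest at 1348. It was followed by the stalk base Rplp0 at 729, Rps15 at 703, Rpl4 at 548, Rpl8 at 545 and Rps2 at 517. Next came Rpl19 at 478, Rps4x at 474, Rpl36 at 469, Rpl41 at 467 and Rps6 at 465. FPKM divides by the joint length of all annotated exons, whose median was 1754.5 bases for members, whereas their principal mRNA had a median of 680.5 bases. Divided by the principal mRNA, levels lay closer together, with a median of 554 and quartiles of 363 and 735 on the FPKM scale over 78 members. On that scale the highest levels were those of Rplp1 at 1348, Rpl41 at 1247, Rps14 at 1137, Rpl18 at 1114 and Rps9 at 1076. The lowest FPKM was that of Rpl39l, a copy of Rpl39 used mainly in the testis, at 1.10.

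The members held 5.59%, 8.97% and 4.06% of all FPKM in the CTX_HCQ libraries 1 to 3, 6.98%, 6.14% and 7.08% in CTX and 6.37%, 5.35% and 5.45% in Control. The group means were 6.21 ± 2.51% in CTX_HCQ, 6.73 ± 0.518% in CTX and 5.72 ± 0.557% in Control (SD, n = 3 each). The CTX_HCQ group held both the highest and the lowest of the 9 libraries, and every other library lay between them. Between 1.96% and 5.24% of reads fell on members in these 2 libraries. Mitochondrially encoded genes took 28.9% of FPKM in CTX 3, against 11.7 to 17.5% in the other 8 libraries. In bulk RNA, fewer cells of a type and less RNA per cell cannot be told apart. Without the mitochondrially encoded genes the members' share was 7.12 ± 2.78% in CTX_HCQ, 8.56 ± 1.36% in CTX and 6.65 ± 0.737% in Control.

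**Figure D1:**
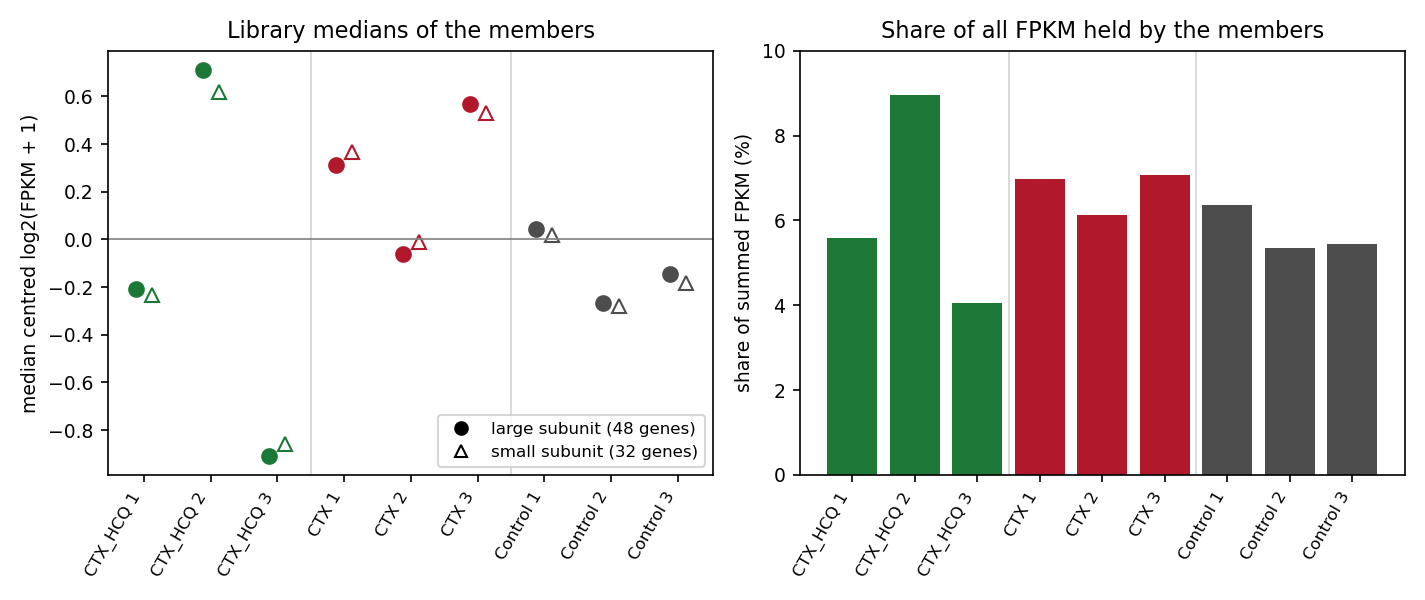
The left panel gives, for each library, the median over members of log2(FPKM + 1) minus the gene's own mean over the 9 libraries, with filled circles for the large subunit and open triangles for the small subunit. The right panel gives the members' share of summed FPKM in percent. The subunits lie side by side in every library, and CTX_HCQ 2 (8.97%) and CTX_HCQ 3 (4.06%) are the extremes.

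Within a library the large and small subunits stood at the same height. Each member's log2(FPKM + 1) was centred on its mean over the 9 libraries, and the median over all members was -0.22, 0.67 and -0.89 in CTX_HCQ 1 to 3, 0.34, -0.03 and 0.55 in CTX 1 to 3 and 0.04, -0.28 and -0.15 in Control 1 to 3. The median of the large subunit minus that of the small subunit lay between -0.06 and 0.09 in all 9 libraries, while the medians themselves spanned 1.56 log2 units within CTX_HCQ. CTX_HCQ 3 was the lowest library for 75 of the 80 members. The highest library was CTX_HCQ 2 for 46 members, CTX 3 for 28 and CTX 1 for 4. The Pearson correlation of a member with the median profile of its subunit over the 9 libraries had a median of 0.95 and was at least 0.9 for 59 members, a description of libraries that all members share. Only Rps10 (-0.56), Rpl24 (-0.27), Rpl39l (0.37) and Rpl3 (0.49) were below 0.5.

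**Figure D2:**
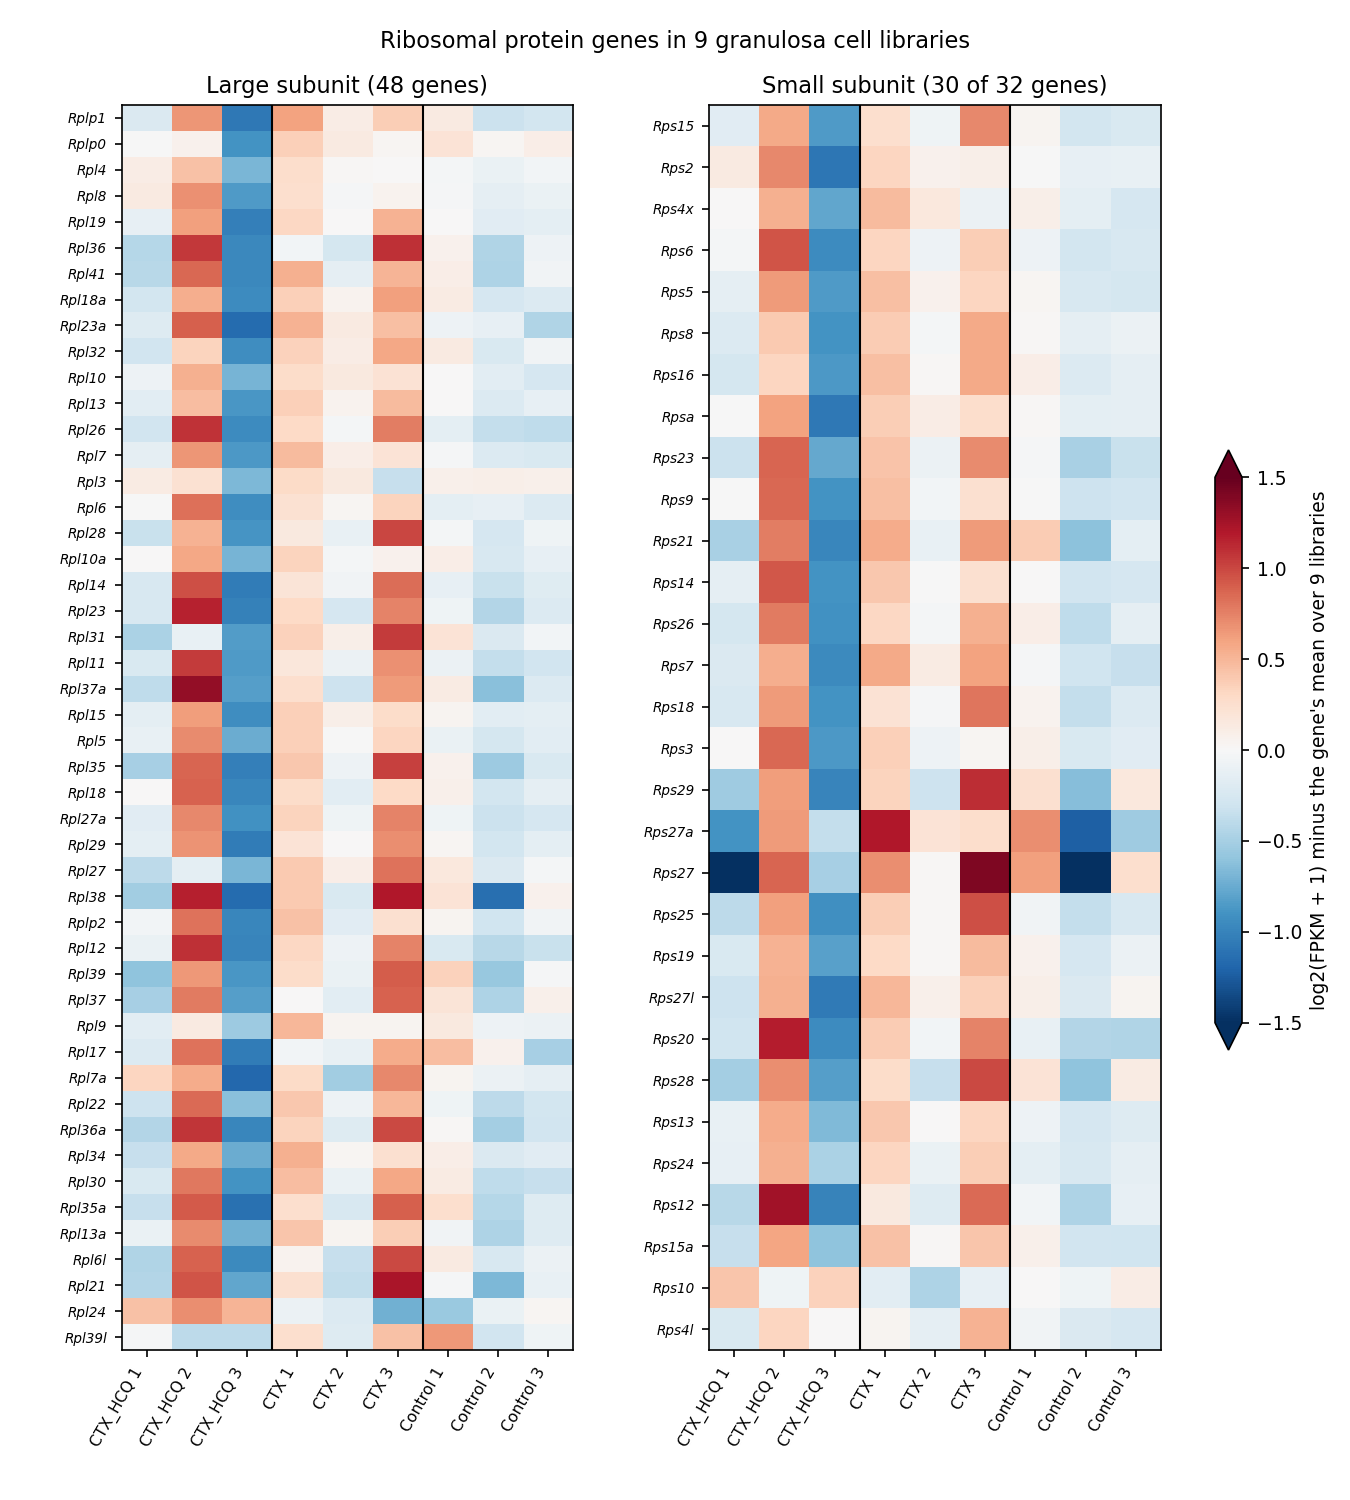
Each row is a member, ordered by mean FPKM within its subunit, and each column a library, with 2 small subunit members not shown. Colour gives log2(FPKM + 1) minus the member's mean over the 9 libraries, from blue (lower) to red (higher), clipped at 1.5. The column of CTX_HCQ 3 is blue for all but a few members, the columns of CTX_HCQ 2 and CTX 3 are mostly red, and Rps10 and Rpl24 run against their neighbours.

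The ratio of the highest to the lowest library had a median of 3.33 over members and ranged from 1.88 for Rps4l to 8.91 for Rps27. It exceeded 3 in 51 members, 4 in 20 and 5 in Rps27, Rps27a (5.46) and Rpl38 (5.19). For 781 other genes with a mean of at least 50 FPKM the median ratio was 2.33, and for the 78 of these with exons of less than 1 kb it was 3.70. The members with the smallest SD of log2(FPKM + 1) over the libraries were Rps10 and Rps4l, both at 0.26, and Rpl9 at 0.28.

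The first comparison sets cyclophosphamide against no drug. In CTX granulosa cells 77 of the 80 members had a higher mean log2(FPKM + 1) than in Control, whereas 49.5% of all tested genes did. The median log2 difference was 0.42 for the members, for the large subunit and for the small subunit alike, against -0.0045 for all 14431 genes. None of the members passed limma's test (adjusted p under 0.05, Benjamini-Hochberg over all 14431 genes), and 0 of all genes did (0%). At an unadjusted p under 0.05 limma found 0 of the 80 members and 1126 genes in all (7.8%), and limma's voom on the recovered reads called 0 genes, with 1128 at an unadjusted p under 0.05. The median SE of a member's difference was 0.39, from a spread shared by all 3 groups, and no member differed by more than 2 SE. On the CTX and Control libraries alone, limma found 13 of the 80 members at an unadjusted p under 0.05. They were among 2067 of the 14431 genes, and none passed adjustment. Every CTX library lay above every Control library for 24 members (30%, against 8.72% of all genes) and below for Rps10 alone (1.25%, against 11% of all genes), and in either direction the groups were apart for 19.7% of all genes. Members move together between libraries, so these counts are not independent. The 3 CTX library medians had an SD of 0.29 log2 units and the 3 Control ones of 0.16. Leaving out CTX 3 gave a median of 0.28 and leaving out CTX 2 gave 0.59, and quantile normalization gave 0.24, with 73 members higher.

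Marker lists of other cell types also differed between libraries. Of the oviduct and cilia list, 4 of 5 genes averaged at least 1 FPKM. Its sum was 8.64 to 15.6 FPKM in CTX_HCQ, 69.5 to 378 FPKM in CTX and 3.63 to 76.7 FPKM in Control. CTX 3 was the highest, with 339 FPKM of Ovgp1, the oviductal glycoprotein, and none of the 5 genes was at 0 in any library. All 6 stroma markers, collagens among them, averaged at least 1 FPKM, and their sum was 112 to 248 FPKM in CTX_HCQ, 117 to 149.96 FPKM in CTX and 188 to 215 FPKM in Control, wholly lower in CTX than in Control. All 4 luteal markers did too, and their sum was 143 to 379.5 FPKM in CTX_HCQ, 236 to 862 FPKM in CTX and 107 to 381 FPKM in Control, where the groups overlapped. None of the stroma or luteal markers was at 0 in any library. The erythroid list summed to 3309.6 FPKM in Control 3 and to no more than 860.4 FPKM elsewhere. The smooth muscle sum was 48.2 to 167 FPKM in CTX_HCQ, 77.3 to 111 FPKM in CTX and 40.2 to 124 FPKM in Control. The endothelial sum was 21.0 to 53.9 FPKM in CTX_HCQ, 32.3 to 62.8 FPKM in CTX and 19.1 to 51.0 FPKM in Control. Within CTX_HCQ both were highest in CTX_HCQ 2. Other lists, theca and oocyte among them, are not given. The part of these cell types in the members' differences was not tested.

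Rps7 and Rpl27 were among the 3 higher members of smallest p. Rps7, a small subunit protein mutated in Diamond-Blackfan anaemia in humans, had 218, 369 and 130.3 FPKM in CTX_HCQ, 375, 277 and 385 FPKM in CTX and 249, 206 and 199 FPKM in Control. All CTX values lay above the Control values, and CTX_HCQ spanned nearly the whole range, with a CTX minus Control log2 difference of 0.65 (SE 0.36, adjusted p = 0.653). Its group means were 239 ± 121 in CTX_HCQ, 346 ± 59.8 in CTX and 218 ± 27.3 in Control, in FPKM (SD, n = 3 each). Rpl27, a large subunit protein, had 129, 152 and 104 FPKM in CTX_HCQ, 222, 180.5 and 299 FPKM in CTX and 189, 145 and 166 FPKM in Control. Here CTX 2 lay below Control 1, and the difference was 0.46 (SE 0.27, adjusted p = 0.653).

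The 3 members with lower means in CTX were Rps10, Rpl24 and Rpl3, of which Rps10 (0.35) and Rpl24 (0.79) had a higher mean in CTX once reads on near-identical copies were joined. Rpl3, which reaches into the peptidyl transferase centre, had 272, 292 and 155 FPKM in CTX_HCQ, 303, 277 and 195 FPKM in CTX and 263, 264 and 263 FPKM in Control. The Control libraries were within 2 FPKM of each other, CTX 1 and CTX 2 were above them and CTX 3 below, and the CTX minus Control difference was -0.05 (SE 0.30, adjusted p = 0.963). Without CTX 3 it was 0.14. The stalk base Rplp0, with 711, 745 and 381 FPKM in CTX_HCQ, 912, 783 and 724 FPKM in CTX and 819.7, 725 and 762 FPKM in Control, differed by 0.06 (SE 0.33, adjusted p = 0.959). Its stalk partner Rplp2 had 135, 245 and 69.5 FPKM in CTX_HCQ, 188, 122 and 164 FPKM in CTX and 142, 113 and 133 FPKM in Control, with CTX 2 below Control 1 and a difference of 0.27 (SE 0.40, adjusted p = 0.829), and Rplp1 differed by 0.52 (SE 0.45, adjusted p = 0.719).

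The second comparison asks what hydroxychloroquine adds to cyclophosphamide. In CTX_HCQ 78 of the 80 members had a lower mean than in CTX, and 52.1% of all genes had a higher one. The median log2 difference was -0.42 for members and -0.41 and -0.42 for the large and small subunits, against 0.01 for all genes. Neither a member nor any other gene passed limma's adjusted threshold (0% of 14431 genes), and voom called 0. At an unadjusted p under 0.05 limma found 785 genes (5.44%; voom 750), and 5 of them were members. Of the members 3 were lower and 2 higher, against 3.6% and 1.84% of all genes. The libraries did not overlap for these 5 members, 3.75% of the members lower and 2.5% higher, against 4.57% and 3.45% of all genes (8.02% in either direction). Without CTX_HCQ 3 the median was -0.03, and 32 members were higher. Without CTX_HCQ 2 it was -0.86, and 59 members among 2440 of the 14431 genes had an unadjusted p under 0.05, though none passed adjustment. Without CTX 3 it was -0.27. Quantile normalization gave -0.18, with 20 members higher. Without CTX 3 and CTX_HCQ 3 together, an alternative chosen after seeing the data, it was 0.10. The CTX_HCQ library medians had an SD of 0.78 log2 units, larger than the difference.

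Rpl31 and Rpl27 were among the 3 lower members. Rpl31, which sits near the exit of the peptide tunnel, had 143, 186 and 112 FPKM in CTX_HCQ, 255, 212 and 415 FPKM in CTX and 231, 171 and 194 FPKM in Control. All CTX_HCQ values lay below all CTX values, CTX 3 was the highest of the 9 and the CTX_HCQ minus CTX difference was -0.97 (SE 0.31, adjusted p = 0.710). Its group means were 147 ± 37.2 in CTX_HCQ, 294 ± 107 in CTX and 199 ± 30.2 in Control, in FPKM (SD, n = 3 each). For Rpl27, whose values are given above, the difference was -0.85 (SE 0.27, adjusted p = 0.708). Relative to the median profile of their subunit, they stood at -0.82 (Rpl31) and -0.86 (Rpl27) log2 units in CTX_HCQ 2, and at 0.07 (Rpl31) and 0.22 (Rpl27) in CTX_HCQ 3. Without 1 library at a time the differences ranged from -1.17 to -0.69 for Rpl31 and from -1.02 to -0.65 for Rpl27. The exons of Rpl31 overlap a gene on the opposite strand, Tbc1d8, whose mean level was 15.0 FPKM, and the strand setting of the counting is not known.

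**Figure D3:**
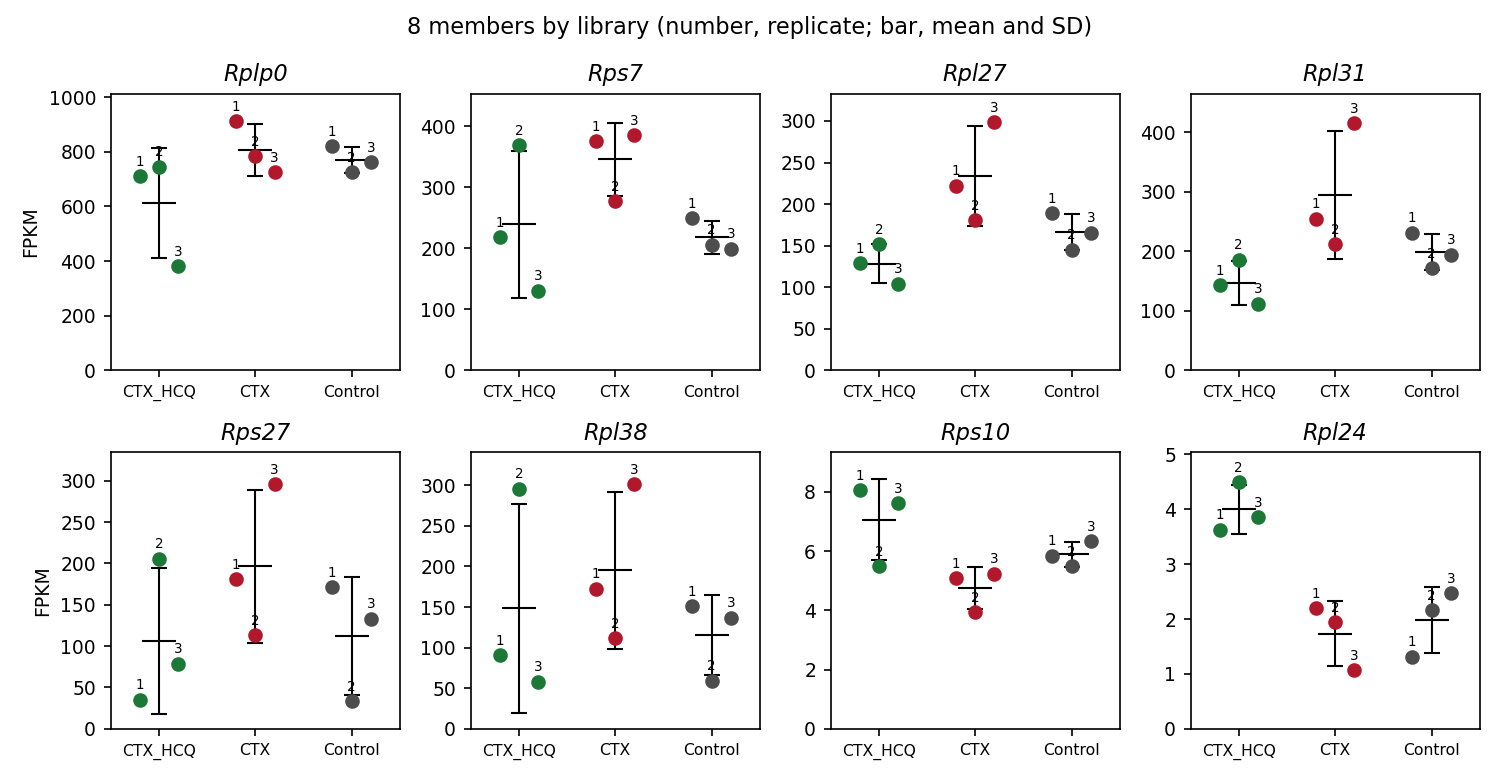
FPKM of 8 members in each library, numbered by replicate, with the group mean and SD as a bar. Rpl27 and Rpl31 have all CTX_HCQ libraries below all CTX libraries, Rps10 and Rpl24 have all CTX_HCQ libraries above all CTX libraries, Rps7 has all CTX libraries above all Control libraries, Rps27 and Rpl38 vary several-fold within each group, and Rplp0 is lowest in CTX_HCQ 3.

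The third comparison sets both drugs against no drug. Of the 80 members 45 had higher and 35 lower means in CTX_HCQ than in Control, and 48.1% of all genes had a higher one. The median difference was 0.01 for all members, 0.03 for the large and 0.01 for the small subunit, against -0.01 for all genes. No gene passed limma's adjusted threshold (0% of 14431), and voom called 0. At an unadjusted p under 0.05 limma found 312 genes (2.16%; voom 290), and 1 of them was a member, against 1.09% of all genes higher and 1.07% lower. That member, Rpl24, also had libraries that did not overlap (1.25% of members higher and 0% lower, against 3.25% and 3.06% of all genes, or 6.31% in either direction). The median was -0.40 without CTX_HCQ 2 and 0.38 without CTX_HCQ 3. The lower members of smallest p were Rpl31 at -0.45 (SE 0.31, adjusted p = 1), Rpl27 at -0.38 (SE 0.27, adjusted p = 1) and Rpl39l at -0.37 (SE 0.29, adjusted p = 1). After Rpl24, the higher ones were Rps10 at 0.21 (SE 0.18, adjusted p = 1) and Rps4l at 0.21 (SE 0.21, adjusted p = 1). The 3 comparisons share libraries and are not independent of each other.

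**Figure D4:**
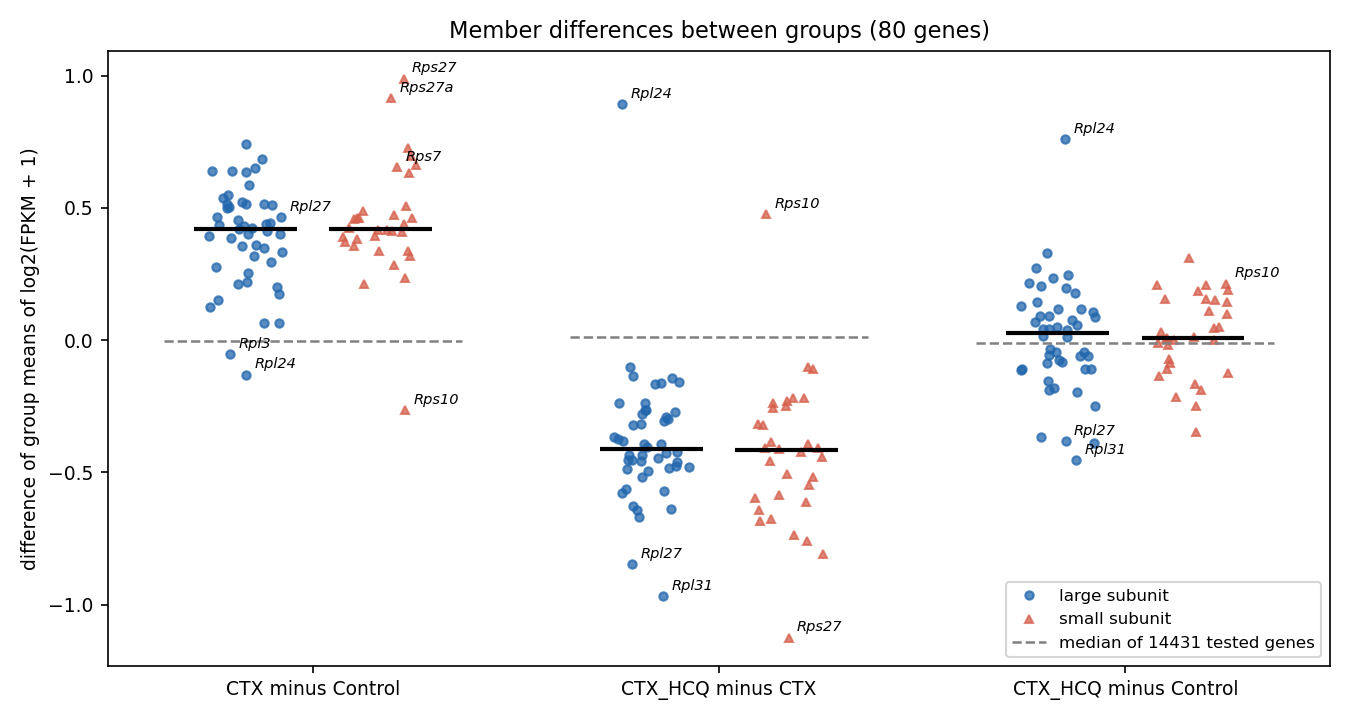
Differences of group means of log2(FPKM + 1) for the 48 large subunit members (circles) and 32 small subunit members (triangles), with black bars at their medians and dashed lines at the median of all tested genes. Members centre on 0.42 for CTX minus Control, on -0.42 for CTX_HCQ minus CTX and on 0.01 for CTX_HCQ minus Control. Rps10 and Rpl24 lie on the other side of 0 in CTX minus Control and in CTX_HCQ minus CTX, and Rpl3 does in CTX minus Control. No member passed the adjusted threshold.

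On their own reads Rps10 and Rpl24 were low and ran against the other members. Rps10 (ENSMUSG00000052146), a small subunit protein near the mRNA entry side that is mutated in Diamond-Blackfan anaemia in humans, had 8.06, 5.49 and 7.61 FPKM in CTX_HCQ, 5.09, 3.94 and 5.24 FPKM in CTX and 5.84, 5.498 and 6.33 FPKM in Control. All CTX_HCQ libraries lay above all CTX libraries, which in turn lay below all Control libraries. The log2 differences were 0.48 (SE 0.18, adjusted p = 0.843) for CTX_HCQ minus CTX and -0.26 (SE 0.18, adjusted p = 0.679) for CTX minus Control. The near-identical copy Rps10-ps2 averaged 194 FPKM, and copies held 88.6% of the reads assigned to Rps10 or its expressed copies. Reads on these copies numbered 1507, 2829 and 814 in CTX_HCQ, 2186, 1920 and 1990 in CTX and 1736, 1580 and 1339 in Control, highest in CTX_HCQ 2 and lowest in CTX_HCQ 3 as for most members. With reads joined, Rps10 correlated with its subunit's profile at 0.96 in place of -0.56. The joined differences were -0.26 for CTX_HCQ minus CTX and 0.35 for CTX minus Control, both of the other sign than those of its own reads. They are of log2 levels over the principal mRNA without the added 1, so only their signs can be compared. RPS10-NUDT3, an annotated gene on the same strand that shares its exons, was listed at 0 in all libraries.

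Rpl24 (ENSMUSG00000098274), a large subunit protein whose partial loss gives the Belly spot and tail phenotype in mice, had 3.63, 4.50 and 3.86 FPKM in CTX_HCQ, 2.19, 1.94 and 1.06 FPKM in CTX and 1.32, 2.16 and 2.47 FPKM in Control, from 18 to 81 recovered reads per library. All CTX_HCQ libraries lay above all others. Its difference was 0.89 (SE 0.23, adjusted p = 0.499) for CTX_HCQ minus CTX, the smallest p of the members, and 0.76 (SE 0.23, adjusted p = 1) for CTX_HCQ minus Control. The first ranged from 0.70 to 1.02 when 1 library was left out. Its exons overlap Gm28037 over 47.0% of their length, and Gm28037 was listed at 0 in all libraries. The copy Gm9385 averaged 17.9 FPKM. With the reads of that copy joined, the level over Rpl24's principal mRNA was 17.9, 25.7 and 11.6 in CTX_HCQ, 26.0, 17.6 and 15.3 in CTX and 12.01, 12.1 and 9.32 in Control, on the FPKM scale. The groups CTX_HCQ and CTX then overlapped. The joined differences, again of log2 levels without the added 1, were -0.13 for CTX_HCQ minus CTX and 0.79 for CTX minus Control. The joined level correlated with the subunit's profile at 0.62 and stayed far below the members' median of 586 with copies joined. Whether another identifier holds further reads of Rpl24 was not settled. On its own reads the CTX minus Control difference was -0.13 (SE 0.23, adjusted p = 0.855), again of the other sign.

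Rps27 varied most between libraries. It encodes a zinc finger protein of the small subunit and had 35.1, 205 and 78.7 FPKM in CTX_HCQ, 181, 113 and 296 FPKM in CTX and 171, 33.2 and 133 FPKM in Control. CTX_HCQ 1 and Control 2 were the lowest and CTX 3 was the highest, and all groups overlapped. Its differences were 0.99 (SE 0.72, adjusted p = 0.687) for CTX minus Control and -1.13 (SE 0.72, adjusted p = 0.906) for CTX_HCQ minus CTX. On its own reads these were the farthest from 0 of the 80 members in both. A copy, Rps27rt on chromosome 9, has the same coding sequence as Rps27 on chromosome 3 in the GENCODE M21 transcripts, with 0 differences in 255 bases. It is shown because a read that lies inside it does not tell the genes apart.
Rps27 and Rps27rt, coding sequence: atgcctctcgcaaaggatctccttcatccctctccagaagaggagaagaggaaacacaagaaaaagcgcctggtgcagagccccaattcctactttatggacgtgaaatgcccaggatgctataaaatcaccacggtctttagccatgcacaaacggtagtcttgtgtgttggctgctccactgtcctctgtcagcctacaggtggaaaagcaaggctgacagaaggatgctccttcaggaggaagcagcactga
Rps27rt took 66.4%, 14.1% and 30.4% of the reads of the pair in CTX_HCQ 1 to 3, 20.9%, 27.3% and 24.9% in CTX 1 to 3 and 15.9%, 72.7% and 26.9% in Control 1 to 3. It exceeded Rps27 in the 2 libraries where Rps27 was lowest. The pair together had 109, 250 and 118 RPM (reads scaled to library size) in CTX_HCQ, 238, 162 and 411 RPM in CTX and 212, 127 and 190.0 RPM in Control, and its highest to lowest library ratio was 3.77, against 8.91 for Rps27 alone. The log2 differences of the pair were 0.55 for CTX minus Control and -0.77 for CTX_HCQ minus CTX. For CTX minus Control, Rps27a with its copies joined differed more, at 0.84.

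**Figure D5:**
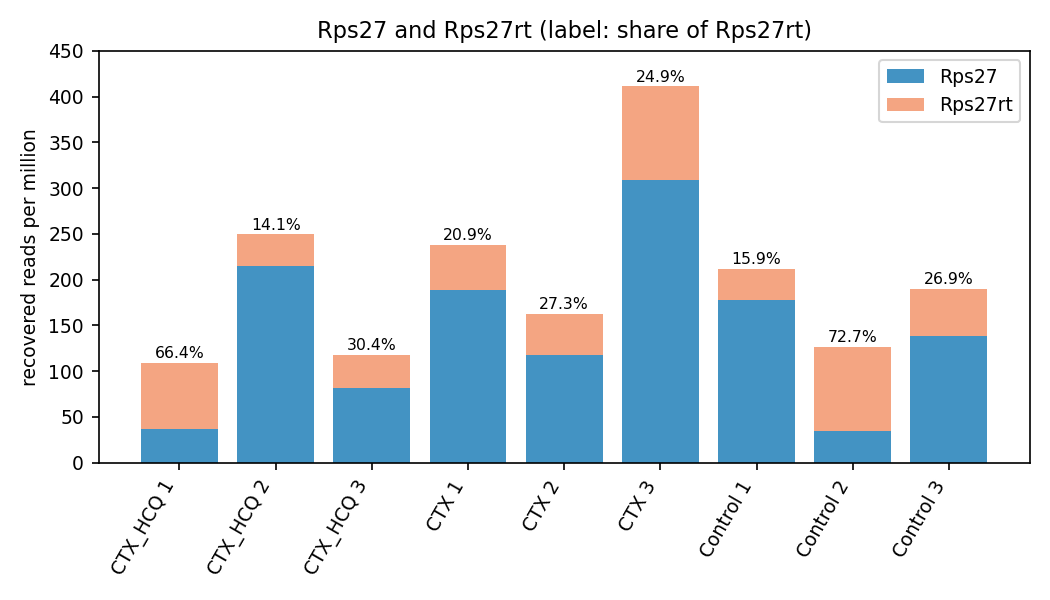
Recovered reads scaled to library size (RPM) for Rps27 (blue) and Rps27rt (orange) in each library, with the share of Rps27rt above each bar. The share is 66.4% in CTX_HCQ 1 and 72.7% in Control 2 and 14.1 to 30.4% in the other 7 libraries.

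Control 2 was also among the 2 lowest libraries of Rps27a and Rpl38, and CTX_HCQ 1 among the 2 lowest of Rps27a. Rps27a, made as a fusion of ubiquitin and a small subunit protein, had 66.8, 196 and 97.8 FPKM in CTX_HCQ, 289, 144 and 151 FPKM in CTX and 203, 52.96 and 86.0 FPKM in Control. CTX_HCQ 1 and Control 2 were its lowest libraries and CTX 1 its highest, and copies took 26.1% of its joint reads in CTX_HCQ 1 and 22.9% in Control 2, against 4.46 to 16.8% elsewhere. Rpl38, which in mice is needed for translation of a set of Hox mRNAs, had 91.0, 296 and 58.1 FPKM in CTX_HCQ, 172, 112 and 302 FPKM in CTX and 151, 59.1 and 137 FPKM in Control. CTX_HCQ 3 and Control 2 were the lowest, and copies took 39.7% of its joint reads in Control 2, against 19.3 to 27.0% elsewhere. The 18 members with a principal mRNA under 500 bases had a median centred level of -0.41 in CTX_HCQ 1, 0.87 in CTX 3 and -0.44 in Control 2, and the 17 members with 1000 bases or more had -0.11 in CTX_HCQ 1, 0.37 in CTX 3 and -0.24 in Control 2. In CTX_HCQ 2 the shorter members had 0.79 and the longer 0.71, and in CTX_HCQ 3 they had -0.97 and -0.90. Across 78 members the Spearman correlation of the centred level with mRNA length was 0.51, -0.07 and 0.05 in CTX_HCQ 1 to 3. It was -0.08, 0.27 and -0.35 in CTX 1 to 3 and -0.42, 0.38 and -0.19 in Control 1 to 3. It is a description across genes of 1 library each.

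Of the 80 members, 56 had at least 1 near-identical annotated copy (95% identity over 60% of the mRNA), and Rpl7a had 36. Reads were joined only from the better-expressed copies that are not much longer than the mRNA and are not members themselves. Such copies were found for 44 members, and Rpl7a had 4 of them. These copies took 64.7% of the joint reads of Rpl17 and 38.4% of those of Rps12. With copies joined, the medians were 0.44 for CTX minus Control, -0.43 for CTX_HCQ minus CTX and 0.02 for CTX_HCQ minus Control over 78 members. For the 43 members whose exons overlap no other gene they were 0.43, -0.43 and 0.01.

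Rps6, Rpl5, Rpl11, Rps27l, Rps19 and Rpl13a correlated with the profile of their subunit at 0.95 or more. Rps6, the substrate of S6 kinase, had 429.5, 845 and 228 FPKM in CTX_HCQ, 549, 418 and 569 FPKM in CTX and 416, 362 and 371 FPKM in Control. CTX lay wholly above Control, and the difference was 0.41 (SE 0.43, adjusted p = 0.760). Rpl5 and Rpl11, which carry 5S ribosomal RNA and bind Mdm2, also had CTX libraries wholly above Control, though CTX 2 and Control 1 nearly met for Rpl11. For Rpl5 the values were 174, 309 and 112 FPKM in CTX_HCQ, 242, 187 and 235 FPKM in CTX and 175, 157 and 168 FPKM in Control, and for Rpl11 they were 166, 402 and 107 FPKM in CTX_HCQ, 219, 183 and 313 FPKM in CTX and 183, 151 and 159 FPKM in Control. CTX_HCQ spanned both other groups for each of them, and the CTX minus Control differences were 0.40 (SE 0.34, adjusted p = 0.717) and 0.50 (SE 0.43, adjusted p = 0.717). Rps27l, a copy of Rps27 induced by p53, had 75.1, 135 and 43.9 FPKM in CTX_HCQ, 131, 98.1 and 119 FPKM in CTX and 98.8, 80.3 and 95.8 FPKM in Control. CTX 2 lay just below Control 1, and CTX minus Control was 0.34 (SE 0.36, adjusted p = 0.760). Rps19, the gene most often mutated in Diamond-Blackfan anaemia in humans, had 85.2, 143 and 56.2 FPKM in CTX_HCQ, 123, 101 and 139.8 FPKM in CTX and 105, 84.1 and 94.2 FPKM in Control. CTX 2 lay below Control 1, and the difference was 0.35 (SE 0.32, adjusted p = 0.728).

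Rpl13a, a large subunit protein that also acts in a translational control complex of human myeloid cells, had 22.7, 40.7 and 14.4 FPKM in CTX_HCQ, 33.0, 25.2 and 31.9 FPKM in CTX and 23.7, 17.4 and 21.2 FPKM in Control. Its CTX libraries lay above all Control libraries, and the difference was 0.51 (SE 0.32, adjusted p = 0.658). Rpl9, a large subunit protein and one of the steadiest members, had 107, 131 and 81.2 FPKM in CTX_HCQ, 169, 122 and 122 FPKM in CTX and 131, 113 and 112 FPKM in Control. CTX 1 was the highest and CTX_HCQ 3 the lowest.

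The abundant members differed in how far they followed the common profile. Rplp1 had 1098, 2008 and 604 FPKM in CTX_HCQ, 1939.9, 1372 and 1642 FPKM in CTX and 1401, 1015 and 1049.9 FPKM in Control, with CTX_HCQ 2 and CTX 1 highest. Rps15 had 595, 994 and 372 FPKM in CTX_HCQ, 800.2, 641 and 1109 FPKM in CTX and 692, 556 and 572 FPKM in Control, with CTX 3 highest. Rpl4, which lines the peptide tunnel, had 583, 730.4 and 333 FPKM in CTX_HCQ, 648, 546 and 539.9 FPKM in CTX and 528, 503 and 522 FPKM in Control. Its Control libraries were close together and all below CTX, but by little, and the difference was 0.15 (SE 0.33, adjusted p = 0.884). Rps2, at the mRNA entry side, had 540.5, 816 and 232 FPKM in CTX_HCQ, 617, 515 and 526 FPKM in CTX and 492, 454 and 458 FPKM in Control, and CTX minus Control was 0.24 (SE 0.42, adjusted p = 0.858).

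Rpl8, next to the peptidyl transferase centre, had 579.7, 848 and 292 FPKM in CTX_HCQ, 625, 520.3 and 546 FPKM in CTX and 523, 479.9 and 490.5 FPKM in Control, and CTX minus Control was 0.18 (SE 0.38, adjusted p = 0.884). Rpl19, which takes part in a bridge between the subunits, had 418, 699 and 224 FPKM in CTX_HCQ, 568, 459 and 656 FPKM in CTX and 457, 405 and 413 FPKM in Control, with 0.39 (SE 0.39, adjusted p = 0.753). Rps4x, the X-linked form of Rps4, had 462, 667 and 268 FPKM in CTX_HCQ, 636, 511 and 433 FPKM in CTX and 486, 416 and 384 FPKM in Control, with 0.29 (SE 0.36, adjusted p = 0.802). In each of Rplp1, Rps15, Rpl4, Rps2, Rpl8, Rpl19 and Rps4x the lowest library was CTX_HCQ 3. Rps4l, annotated as a transcribed processed pseudogene, had 4.20, 6.60 and 5.08 FPKM in CTX_HCQ, 5.26, 4.54 and 7.71 FPKM in CTX and 4.86, 4.22 and 4.09 FPKM in Control. Rpl39l had 1.02, 0.551 and 0.549 FPKM in CTX_HCQ, 1.43, 0.778 and 1.76 FPKM in CTX and 2.20, 0.671 and 0.949 FPKM in Control. The groups overlapped for both, and Rpl39l was the member whose highest library was Control 1.

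Genes of related function were counted in the same fit, and none passed the adjusted threshold in any comparison. The 9 ribosomal genes outside the naming rule were all higher in CTX than in Control (median 0.17) and 7 were lower in CTX_HCQ than in CTX (median -0.15). The smallest p-values were those of Rpl22l1, a paralog of Rpl22, at 0.60 (SE 0.46, adjusted p = 0.699) for CTX minus Control, and of Rack1, a small subunit scaffold, at -0.35 (SE 0.30, adjusted p = 0.906) for CTX_HCQ minus CTX. Rps3a1, the most abundant of them, had 925, 2116 and 504 FPKM in CTX_HCQ, 1352, 907 and 1024 FPKM in CTX and 807, 740.1 and 745 FPKM in Control, the same order of libraries within CTX_HCQ as the members. Of 77 mitochondrial ribosomal protein genes 66 were higher in CTX than in Control (median 0.25) and 69 lower in CTX_HCQ than in CTX (median -0.27). Mrpl42, a protein of the mitochondrial large subunit, had the smallest p of these, with 7.67, 9.63 and 6.67 FPKM in CTX_HCQ, 14.7, 14.4 and 16.2 FPKM in CTX and 9.89, 9.93 and 10.3 FPKM in Control. Its CTX_HCQ libraries lay below all others and its CTX libraries above all others, with a CTX_HCQ minus CTX difference of -0.85 (SE 0.17, adjusted p = 0.394).

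Translation factors and other mRNAs with a terminal oligopyrimidine motif were split, 18 of 28 higher and 10 lower in CTX than in Control (median 0.07), and 12 higher and 16 lower in CTX_HCQ than in CTX (median -0.10). The smallest p-values were those of Snhg5, a snoRNA host gene, at -0.88 (SE 0.38, adjusted p = 0.639) for CTX minus Control and of Eif3a, an initiation factor subunit, at 0.34 (SE 0.18, adjusted p = 0.906) for CTX_HCQ minus CTX. Ribosome assembly genes were split evenly in the first comparison, 22 of 44 higher (median -0.02), and 33 were higher in CTX_HCQ than in CTX (median 0.11). Polr1b, a subunit of RNA polymerase I, differed by -0.39 (SE 0.17, adjusted p = 0.639) for CTX minus Control, and Nop10, a protein of box H/ACA particles, by -0.86 (SE 0.22, adjusted p = 0.499) for CTX_HCQ minus CTX. Among 24 genes of mTOR signalling and its control of translation, 9 were higher in CTX than in Control (median -0.09). Larp1 had 34.6, 21.7 and 27.3 FPKM in CTX_HCQ, 19.0, 20.9 and 18.7 FPKM in CTX and 24.7, 31.5 and 34.1 FPKM in Control, with all CTX libraries lowest and a CTX minus Control difference of -0.59 (SE 0.21, adjusted p = 0.639). Mtor had 10.4, 8.10 and 9.44 FPKM in CTX_HCQ, 6.03, 8.72 and 8.65 FPKM in CTX and 10.3, 11.7 and 11.7 FPKM in Control, with -0.49 (SE 0.18, adjusted p = 0.639). Neither difference passed the test.

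The common profile was not held by ribosomal genes alone. The 78 other abundant genes with exons under 1 kb had library medians of -0.17, 0.56 and -0.98 in CTX_HCQ 1 to 3, 0.40, -0.0041 and 0.49 in CTX 1 to 3 and -0.0030, -0.27 and -0.15 in Control 1 to 3. As among the members, CTX_HCQ 3 was the lowest and CTX_HCQ 2 the highest. Their group differences had medians of 0.46 for CTX minus Control, -0.46 for CTX_HCQ minus CTX and -0.07 for CTX_HCQ minus Control. The 331 other abundant genes with exons of 3 kb or more had -0.09, -0.02 and -0.14. The exons of the members had quartiles of 1267.5 and 2688 bases, so most members lay between these length classes. After a smooth trend on exon length was removed from each library, the members' medians were 0.29, -0.28 and 0.03.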

How the data were processed

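Granulosa cell mRNA was sequenced in 9 libraries, 3 per group, grouped by the labels. The deposited values are FPKM per gene, computed by the authors. Fastp 0.23.2, HISAT2 2.0.5, featureCounts 1.5.0-p3, DESeq2 1.20.0 and the build GRCm39 are named, per the submitters' processing notes. The annotation release and strand setting are not given in the sources used here. Each FPKM was divided by what 1 read is worth, with GENCODE M21 exon lengths. Whole reads (within 0.02) came out for 14431 of 14431 tested genes, 853 of them with a searched length, and for all 80 members. Library sizes behind the FPKM, 15344525 to 17943266 fragments, follow median-of-ratios size factors, so levels are relative to the median gene. The p-values came from limma 3.58.1 in R 4.3.3 on log2(FPKM + 1), with 3 group means, a variance trend and Benjamini-Hochberg adjustment over genes with at least 1 FPKM in at least 3 libraries, two-sided. Fold changes on this scale understate low genes. The code was tested on simulated data. Near-identical copies were found with blastn 2.17.0+. Alternatives varied the pseudocount, filter, scaling, length trend, groups fitted, library weights, libraries, replicate block and voom on recovered reads.

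The members, lists and tests were chosen with earlier results of these data known. Members named with values were the 5 of highest mean FPKM per subunit, the 3 of smallest p per direction and comparison, the 3 of largest and smallest SD, the 4 farthest from their subunit's profile, those at the filter and a list by role. Related lists name genes among the 2 of smallest p, and Rps3a1 was chosen for its level. Some members that these rules name are not reported here.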

Additional observations from a re-analysis of the deposited data

How the results depend on the processing

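No member was called under any alternative fitted across all genes. Fitted with only its 2 groups, CTX minus Control had 13 members at limma's unadjusted p under 0.05, among 2067 genes. CTX_HCQ minus CTX then had 3 among 591, and CTX_HCQ minus Control had 1 among 282. With library weights limma called 648 genes for CTX minus Control, 1 for CTX_HCQ minus CTX and 1 for CTX_HCQ minus Control, none of them members; the weights were 0.262 for CTX_HCQ 3 and 3.72 for Control 2, and the cause was not tested. Leaving out 1 library gave 0 to 13 genes, 0 to 10 genes and 0 genes in these comparisons, 13 and 10 without Control 1. The members' median then ranged from 0.28 to 0.59, from -0.86 to -0.03 and from -0.40 to 0.38. Quantile normalization gave 0.24, -0.18 and 0.07, with 73, 20 and 51 members higher. Signs turned for Rpl24 in CTX minus Control (-0.30 to 0.06 over libraries left out, 0.059 without CTX 3, and 0.059 without CTX 3 and CTX_HCQ 3), for Rpl3 in the same comparison (0.068 with library weights, 0.14 without CTX 3, 0.14 without both) and for Rpl39l in CTX_HCQ minus Control (0.046 with library weights). With copies joined they turned for Rps10 (0.35 for CTX minus Control, -0.26 for CTX_HCQ minus CTX) and Rpl24 (0.79 and -0.13 in the same comparisons); the cause was not tested. The large minus small subunit difference was 0.023, 0.013 and 0.038 in Control 1 to 3 without these changes. Its mean over the Control libraries was 0.038 after quantile normalization and 0.053 after removal of the length trend. Leaving out CTX 3 and CTX_HCQ 3 together, scaling to read totals (0.42, -0.37 and 0.06), joining copies and dropping members with exon overlap were chosen after seeing the data.

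Libraries with the same replicate number did not clearly deviate together (correlations -0.457 to 0.135). With 3 libraries per group such correlations cannot show whether the numbers pair the libraries, and this stays unknown. With the replicate as a block limma called 0 genes in each comparison, and 0, 4 and 1 members had an unadjusted p under 0.05, among 847, 668 and 293 genes. Depth limits Rpl39l, at 7 to 31 reads per library, and Rpl24, at 18 to 81, more than the other members, which had at least 90 reads.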
